A study of Homo sapiens with 12 samples.

Results

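The comparison set wild-type HEK293 cells given a plasmid for STING against the same cells given empty vector, and read the RNA found on polysomes. HEK293 is a human embryonic kidney line. Cells of both groups had been transfected with 5 ug of plasmid for 24 h, so the controls carry foreign DNA and the transfection as well. The table lists 12421 gene symbols, and a member was each symbol above the table's lowest value of 1 in at least 1 of the 4 wild-type libraries, which gave 11463 members (92.3%). The 2 vector libraries and 2 STING libraries are replicates 1 and 2 of their titles. Whether replicates came from separate cultures is not stated in the labels, and the p-values then rest on a spread that may be only technical. Cells labelled as PERK knockouts, given the same plasmids (2 libraries each), lie in the same table, and their clone is not given in the sources used here. A first experiment with vector and STING in HEK293 cells (2 libraries each) lies in a table of its own. The series holds 12 libraries in 6 groups.

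STING, listed as TMEM173, is an adaptor of the endoplasmic reticulum. It is switched on by the cyclic dinucleotide that the sensor cGAS makes on cytosolic DNA, and it recruits the kinase TBK1, which activates the transcription factor IRF3 and, with related kinases, NF-kB. PERK is a kinase of the same membrane that phosphorylates eIF2alpha, which lowers the start of translation on most mRNAs and favours some with upstream reading frames, among them that of the transcription factor ATF4. In polysome profiling a sucrose gradient separates mRNAs by the number of ribosomes they carry. Only polysome fractions were analysed here, so a change in the amount of an mRNA and a change in its ribosome loading cannot be told apart, and neither can a change in the number of cells that hold an mRNA and in its amount per cell.

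Values are FPKM, fragments scaled to transcript length and library size. The tables give no read counts, so depth is unknown. Replicates correlated across genes on the log2 scale with Pearson r = 0.985 for the vector pair and 0.988 for the STING pair, and libraries of different groups with 0.978 to 0.985, so the groups barely separated over all genes. Markers fit the labelled line only in part: 9 of 14 kidney and neural-like markers were members, 4 of them with a mean of at least 5. VIM, the intermediate filament vimentin, stood at 86.9 and 136 in the vector libraries and 102 and 107 in the STING libraries. PAX2, PAX8, NES, NEFM and SALL4 were not members. Of markers of other cells, 3 of 10 haematopoietic genes and 1 of 8 hepatocyte genes were members, all with means under 5. Of fibroblast genes 1 of 10 was a member, with a mean of at least 5, and of endothelial genes 0 of 6.

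TMEM173 became a sizeable part of the STING libraries. It made up 0.00180% and 0.00333% of the summed FPKM of the vector libraries and 3.35% and 3.45% of that of the STING libraries. The 83 ribosomal protein entries made up 43.8% and 37.0% with vector and 45.0% and 41.7% with STING. The 8 MTRNR2L entries, near-identical copies of mitochondrial ribosomal RNA sequence in the nuclear genome whose reads cannot be assigned with certainty, made up 8.87% and 14.3% with vector and 12.1% and 16.7% with STING. All other entries together held 47.3% and 48.7% with vector and 39.6% and 38.1% with STING, so on this relative scale their room was smaller in both STING libraries. The share of symbols at the lowest value was also higher with STING, at 18.1% and 16.5%, than with vector, at 14.2% and 13.1%.

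**Figure D1:**
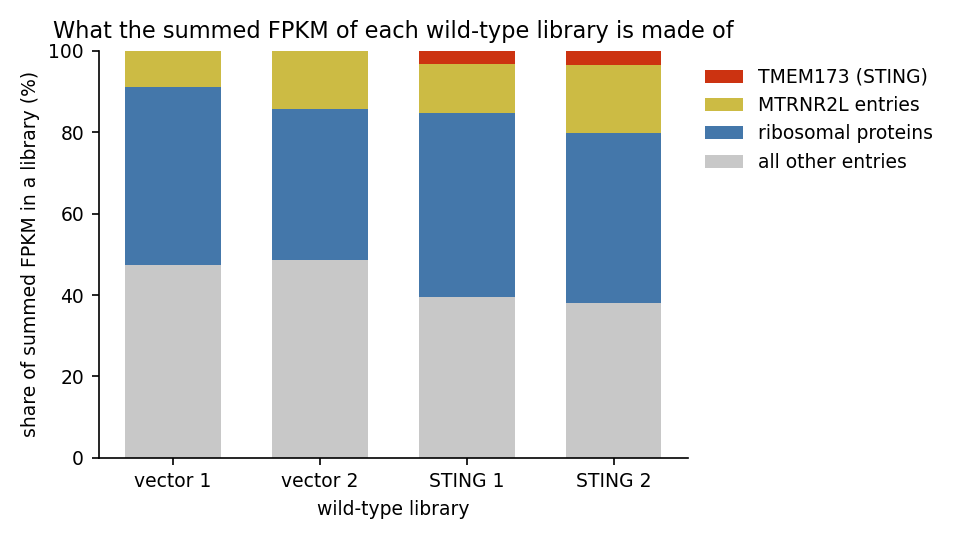
Share of the summed FPKM of each wild-type library (percent, vertical axis) held by TMEM173, the MTRNR2L entries, the ribosomal proteins and all other entries, 1 bar per library. The grey part is 47.3% and 48.7% in the vector libraries and 39.6% and 38.1% in the STING libraries.

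The median member accordingly stood lower with STING, with a log2 change of -0.29. As deposited, 6414 members had both STING libraries below both vector libraries and 406 had both above. After each library was divided by its median-of-ratios factor (1.09 and 1.22 for the vector libraries, 0.871 and 0.882 for the STING libraries) these numbers were 2209 and 2080. Changes below are therefore given relative to the median member, as a difference of log2(FPKM + 1). Exceptions are the log2 change of TMEM173 and the differences of effects between wild-type and knockout cells. The middle 80% of members lay between -0.35 and 0.35 on the relative scale. On this scale a gene close to the lowest value of 1 in every library has a relative change near 0.29 by construction, and a change of a low gene is understated. In the wild-type comparison, limma p-values beside a relative change test the change before the median was subtracted, which is 0.29 lower.

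One gene passed the test. In limma over 12254 genes, with the 8 libraries of the knockout experiment sharing 1 estimate of the spread and Benjamini-Hochberg adjustment at 0.05, TMEM173 was the 1 gene called higher (0.00816%), and 0 genes were called lower (0%). In the vector libraries TMEM173 was listed at 23.1 and 36.7 FPKM, and in the STING libraries at 41812 and 40660. It rose by a log2 change of 10.42 (SE 0.34, limma adjusted p = 3.3e-05). The next smallest adjusted p of any gene was 0.384. At an unadjusted p under 0.05 there were 1570 genes, 54 higher and 1516 lower, and with median-of-ratios scaling 541 genes, 390 higher and 151 lower. The call count was 1 or 2 in each alternative that was run. The 2 came without STING library 2, where KRTAP20-2, a keratin-associated protein gene, was added. It stood at 10.2 in STING library 1 and at the lowest value of 1 in the other 3 wild-type libraries.

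For all other genes the data are therefore levels and directions in 4 libraries, not tested changes. As a description, a member was marked where the STING and vector libraries did not overlap after median-of-ratios scaling and the change was at least 1.5-fold relative to the median member. Of the 11463 members 239 were so marked above the median (2.08%) and 167 below it (1.46%). Among the 6320 members with a mean of at least 5 the numbers were 105 (1.66%) and 129 (2.04%). The gene lists below are read against these shares. Of the same 6320 members 2456 lay above the median member, so lists of such genes need not divide evenly around it.

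The other components of the pathway did not follow TMEM173. Of 20 listed genes 15 were members, and TMEM173 was the 1 marked. IRF3, the transcription factor downstream of TBK1, stood at 67.0 and 50.1 with vector and 52.1 and 47.5 with STING, so the groups overlapped. TBK1 itself stood at 19.4 and 2.87 with vector and at 3.17 and 1.72 with STING, so vector library 1 alone was high. DDX41, a helicase proposed as a DNA sensor, stood at 53.2 and 51.2 with vector and 35.6 and 39.2 with STING, and overlapped after scaling. EIF2S1, the alpha subunit of eIF2, stood at 5.07 and 10.1 with vector and at 4.97 and 5.56 with STING. EIF2AK3, the gene of PERK, and MB21D1, the gene of cGAS, were not members.

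Immediate early genes, which encode transcription factors and feedback regulators made within minutes to hours of a stimulus, lay above the median member as a group. Of 47 listed genes 40 were members, 39 of these lay above the median member, and the median relative change was 0.44, against 0 over all members. Of the 40, 11 were marked above the median (27.5%) and 0 below it. Restricted to a mean of at least 5, 27 of 28 lay above the median member, the group median was again 0.44, and the median of all such members was -0.07. Of these 28, 7 were marked above the median and 0 below. Of the 11 marked in all, 3 stood at the lowest value in both vector libraries and are members only through the STING libraries, so the count over the 40 is a description. None of the 40 passed limma.

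ZFP36, which encodes tristetraprolin, a protein that speeds the decay of mRNAs with AU-rich elements, had the largest upward change after TMEM173 among members with a mean of at least 5 and no overlap, small RNA entries left out. Its vector libraries gave 13.7 and 18.8 FPKM and its STING libraries 36.5 and 37.4. Both STING libraries lay well above both vector libraries, and the change relative to the median member was 1.45 (SE 0.29, limma adjusted p = 0.384). MAFF, a small basic leucine zipper protein whose values were seen before it was chosen, stood at 1.96 and 2.18 with vector and at 6.72 and 6.98 with STING. The libraries of each group nearly coincided and the groups were far apart, with a relative change of 1.65 (SE 0.19, limma adjusted p = 0.384). ARC, a cytoskeletal protein known from neurons and likewise chosen after its values were seen, stood at the lowest value of 1 in both vector libraries and at 2.43 and 2.62 with STING.

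ATF3, a transcriptional regulator induced by many stresses, stood at 16.3 and 20.5 with vector and at 26.1 and 28.8 with STING, a relative change of 0.85 (SE 0.21). GADD45B, a stress sensor upstream of MAP kinases, stood at 4.45 and 3.32 with vector and at 8.28 and 6.13 with STING, a relative change of 1.04 (SE 0.28). IER3, a survival regulator, stood at 28.2 and 17.8 with vector and at 30.5 and 32.3 with STING. Its STING libraries lay just above the higher vector library, and the vector pair was spread more widely than the STING pair. IER5, KLF4, JUND, NR4A2 and CSRNP1 complete the 11 marked members, with relative changes of 0.92, 1.01, 0.61, 0.65 and 0.69. KLF4 and NR4A2 stood at the lowest value in both vector libraries and at no more than 3.27 with STING.

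Several classical members were not marked. JUN stood at 49.8 and 59.6 with vector and at 42.8 and 46.9 with STING, lower as deposited, higher after scaling and close to the median change. EGR1 stood at 4.40 and 5.48 with vector and at 4.91 and 3.04 with STING, so its groups overlapped on both scales. PPP1R15A, the phosphatase subunit GADD34 that reverses eIF2alpha phosphorylation, stood at 56.9 and 65.2 with vector and at 72.5 and 63.2 with STING. Its groups overlapped as deposited and were apart after scaling, with STING higher, but under the 1.5-fold mark. DUSP2, a phosphatase of MAP kinases, was the 1 member of the list below the median member, at 9.88 and 8.05 with vector and at 5.43 and 5.02 with STING (relative change -0.38).

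Many immediate early promoters are known to carry cyclic AMP response elements. The following are the 150 bases before the RefSeq start of MAFF (first of 2 listed starts) and of PPP1R15A, 1 marked and 1 not marked member, in GRCh38.p14, at chr22:38201844-38201993 on the plus strand and chr19:48872271-48872420 on the plus strand. Capitals mark TGACGTCA, searched on both strands.
MAFF: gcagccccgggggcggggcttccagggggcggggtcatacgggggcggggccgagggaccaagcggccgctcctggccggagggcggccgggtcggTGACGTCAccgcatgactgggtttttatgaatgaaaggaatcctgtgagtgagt
PPP1R15A: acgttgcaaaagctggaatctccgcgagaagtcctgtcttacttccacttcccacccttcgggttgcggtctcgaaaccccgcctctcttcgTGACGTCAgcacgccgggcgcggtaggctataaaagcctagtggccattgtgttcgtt
The element was in a 300-base window (250 bases before to 50 after a start) of 5 of 31 immediate early members with a RefSeq promoter (16.1%). Shares were 4.01% of the 9472 members with a promoter and 2.25% of all 27305 genes with one. A gene counted if the window of any of its listed starts held a match, here and in the counts below. Among the 177 members marked above the median that had a promoter, 8 held the element (4.52%). A match is a description of the letters, not a measured site.

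NF-kB genes are next by median among the regulatory lists. NF-kB is a family of dimeric transcription factors held in the cytoplasm by inhibitors, and NFKBIA, the inhibitor IkB-alpha, is also a target that shuts the response off. Of 35 listed genes 24 were members, 18 lay above the median member, the median relative change was 0.35, and 3 were marked above the median (12.5%) and 0 below it. The median was 0.21 without STING library 1, 0.22 without STING library 2 and 0.25 without vector library 2. Among the 11 with a mean of at least 5 the median was 0.27, and 6 lay above the median member. None passed limma.

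NFKBIA was at 72.9 and 81.4 in the vector libraries and at 127 and 126 in the STING libraries (FPKM). The STING libraries nearly coincided and lay far above both vector libraries, with a relative change of 1.00 (SE 0.16, limma adjusted p = 0.384). TNF, a secreted inflammatory cytokine, stood at 1.86 and 1.00 with vector and at 3.59 and 2.2 with STING, close to the lowest value. The third marked member was IER3. RELA, the p65 subunit, stood at 46.3 and 47.4 with vector and at 45.3 and 47.1 with STING, which overlapped as deposited and was higher with STING after scaling, under the 1.5-fold mark. CD83, a surface protein, stood at 7.78 and 11 with vector and at 4.73 and 5.65 with STING, on the opposite side of the median member (relative change -0.44).

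The 250 bases before the RefSeq start of NFKBIA lie at chr14:35404750-35404999 on the minus strand in GRCh38.p14 and are shown because this inhibitor had the largest change of the list. Capitals mark matches to GGNNNTTCC, searched on both strands.
NFKBIA: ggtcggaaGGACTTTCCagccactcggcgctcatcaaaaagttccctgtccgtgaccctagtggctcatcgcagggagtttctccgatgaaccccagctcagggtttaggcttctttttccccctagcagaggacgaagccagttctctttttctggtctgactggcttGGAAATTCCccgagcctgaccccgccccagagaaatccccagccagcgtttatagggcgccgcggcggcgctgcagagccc
The motif was in the windows of 15 of 21 NF-kB members with a promoter (71.4%), against 28.8% of members and 23.5% of all genes with one. It was in 35 of the 177 members with a promoter marked above the median (19.8%) and in 40 of the 144 marked below it (27.8%). The list holds known targets, so its share rests on how the list was compiled and is not a result of these libraries. The same holds for the interferon and ATF4 lists and their elements below.

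Interferon-stimulated genes, the best known output of STING, were spread on both sides of the median member. Of 48 listed genes 31 were members, 18 lay above the median member, the median was 0.08, and 3 were marked above it (9.68%) and 0 below. Leaving out vector library 2 or STING library 1 put the median at -0.05 or -0.04. ISG15, an ubiquitin-like modifier, stood at 109 and 82.7 with vector and at 168 and 124 with STING, a relative change of 0.89 (SE 0.21, limma adjusted p = 0.384). IFIT3, an interferon-induced protein with tetratricopeptide repeats, stood at 4.52 and 7.35 with vector and at 7.88 and 8.25 with STING (relative change 0.71, SE 0.27). IFIT5 was the third, at 2.07 and 2.35 with vector and 3.62 and 2.59 with STING (relative change 0.64). In these 3 genes all STING values were above all vector values, but by little in IFIT3 and IFIT5.

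IFNB1, interferon beta itself, stood at 7.02 and 7.65 with vector and at 6.97 and 3.50 with STING. CXCL10, a chemokine of the interferon response, stood at 7.35 and 6.73 with vector and at 4.40 or less with STING. CCL5, another chemokine, stood at 131 and 109.9 with vector and at 112 and 95.7 with STING. In none of these 3 were both STING libraries above both vector libraries. B2M, beta-2 microglobulin, stood at 760 and 816 with vector and at 685 and 628 with STING, near the median change. MX1, OAS1 and RSAD2 were not members.

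The 150 bases before the ISG15 start lie at chr1:1013347-1013496 on the plus strand in GRCh38.p14. Capitals mark the stretch covered by 2 overlapping matches to the interferon-stimulated response element (GAAA, any 2 bases, GAAA), searched on both strands.
ISG15: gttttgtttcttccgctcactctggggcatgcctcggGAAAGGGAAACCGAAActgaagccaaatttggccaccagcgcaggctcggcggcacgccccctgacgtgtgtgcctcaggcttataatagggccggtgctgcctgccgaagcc
This response element was in 14 of 24 interferon members with a promoter (58.3%), 3.57% of members and 4.38% of all genes with one. It was in 5 of the 177 members with a promoter that were marked above the median (2.82%).

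Genes of the integrated stress response, the program that follows eIF2alpha phosphorylation, also lay on both sides. Of 54 listed ATF4 targets and related genes 52 were members, 27 lay above the median member, the median was 0.07, and 4 were marked above it (7.69%) and 0 below. ATF4 stood at 2905 and 2549 with vector and at 2829 and 2502 with STING, so its groups overlapped as deposited and were apart after scaling, with STING higher, under the 1.5-fold mark. DDIT3, the transcription factor CHOP that acts in prolonged stress, stood at 57.8 and 58.8 with vector and at 81.7 and 80.4 with STING. Replicates nearly coincided, and the relative change was 0.76 (SE 0.17, limma adjusted p = 0.384). CTH, an enzyme of cysteine synthesis, stood at 4.58 and 6.61 with vector and at 6.02 and 8.78 with STING, which overlapped as deposited. CEBPB, a transcription factor, and ATF3 were the other marked members.

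Among targets named often in this program, ASNS, asparagine synthetase, stood at 24.0 and 27.7 with vector and at 25.1 and 22.9 with STING. TRIB3, a pseudokinase, stood at 12.2 and 13.7 with vector and at 11.1 and 12.7 with STING. Both overlapped between the groups as deposited and were higher with STING after scaling, under the 1.5-fold mark. Of 20 mRNAs known to resist eIF2alpha phosphorylation through upstream reading frames, all were members, 12 lay above the median member, the median was 0.05 (-0.03 without vector library 1) and 2 were marked (DDIT3 and CEBPB). The C/EBP-ATF element TGATGNAA, searched on both strands, was in 17 of 40 ATF4-list members with a promoter (42.5%). Shares were 2.51% of members and 4.46% of all genes with one. The element was in 7 of the 177 members with a promoter marked above the median (3.95%) and in 1 of the 144 marked below (0.694%).

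**Figure D2:**
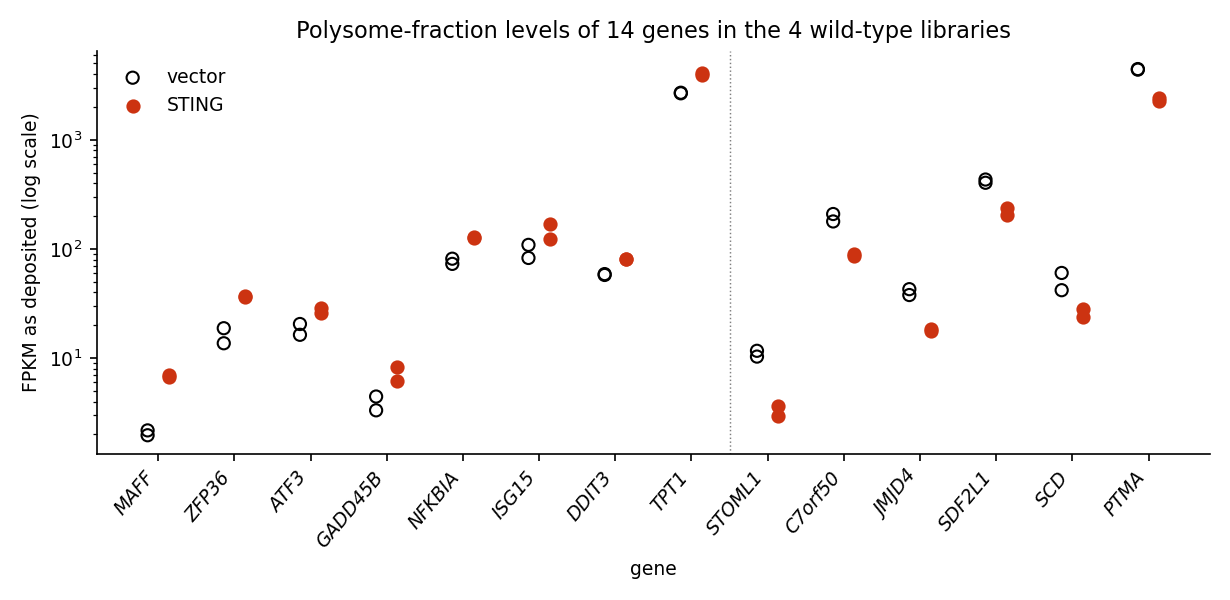
FPKM of 14 genes (log axis) in the 4 wild-type libraries, open circles for vector and red for STING. To the left of the dotted line are genes with both STING libraries above both vector libraries, such as NFKBIA at 127 and 126 against 72.9 and 81.4, and to the right genes with both below, such as STOML1 at 2.96 and 3.62 against 10.3 and 11.7.

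Cytosolic ribosomal protein mRNAs, whose translation is known to depend on a terminal oligopyrimidine (TOP) tract at the first base, lay above the median member almost throughout. Of 47 large-subunit members 45 were above it, the median was 0.33, and 3 were marked above (6.38%). Of 31 small-subunit members 30 were above it, the median was 0.40, and 5 were marked above (16.1%), with 0 below in either list. Relative changes ran from -0.28 (RPL21) to 0.66 (RPL13A) for the large subunit and from -0.04 to 0.88 (RPS2) for the small. RPS2 stood at 14039 and 10517 with vector and at 19087 and 17578 with STING. RPSA, a small-subunit protein, stood at 1457 and 1170 with vector and at 1835 and 1584 with STING (relative change 0.68, SE 0.21). Both genes have many near-identical copies, so the assignment of their reads is uncertain.

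As deposited the difference of this group was smaller, and the vector libraries differed among themselves. The summed FPKM of the large-subunit list was 294127 and 213847 with vector and 284405 and 251506 with STING. For the small-subunit list it was 268369 and 192477 with vector and 277444 and 240188 with STING. In both sums the groups overlapped. RPL41, a very short ribosomal protein, stood at 38474 and 29188 with vector and at 44821 and 41406 with STING. RPL13A stood at 1021 and 710 with vector and at 1194 and 1007 with STING, so STING library 2 lay below vector library 1. Without vector library 2 the list medians were 0.11 (large) and 0.17 (small), and without vector library 1 they were 0.62 and 0.66. The vector pair also differed by transcript length: relative to all genes, vector library 2 minus vector library 1 had a median log2 difference of -0.12 in the 1255 shortest members with a mean of at least 5 and of 0.12 in the 1254 longest. By level, the same difference was -0.23 in the 1264 most abundant members with a mean of at least 5 and 0.08 in the 1264 least abundant. The part of these differences in the ribosomal protein result was not tested. The median relative change with STING was -0.03 in the same shortest members and -0.08 in the longest.

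TPT1, a translationally controlled tumour protein whose mRNA is also of the TOP class, stood at 2696 and 2664 with vector and at 4084 and 3895 with STING. The pairs were tight and apart, with a relative change of 0.87 (SE 0.20, limma adjusted p = 0.384). It was the 1 marked above the median in the list of 51 translation factors, whose median was -0.04. Marked below were EIF4G2, an initiation factor that lacks the region binding the cap-binding protein, at 76.6 and 92.6 with vector and 40.0 and 41.5 with STING, and EIF2B3, a subunit of the exchange factor of eIF2, at 6.63 and 12.1 with vector and 3.68 and 4.92 with STING. Their relative changes were -0.74 (SE 0.35) and -0.63 (SE 0.34).

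The 30 bases around the RefSeq start, 15 before and 15 from it on, show the tract in 4 of these genes (GRCh38.p14). They lie at chr12:56116618-56116647 (RPL41, plus), chr19:49487593-49487622 (RPL13A, plus), chr3:39406705-39406734 (RPSA, plus) and chr13:45341169-45341198 (TPT1, minus). Capitals mark a C within 3 bases of the start and the unbroken run of pyrimidines from it, at least 4 after the C.
RPL41: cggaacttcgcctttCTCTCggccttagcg
RPL13A: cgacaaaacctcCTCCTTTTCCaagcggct
RPSA: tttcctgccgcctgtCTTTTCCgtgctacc
TPT1: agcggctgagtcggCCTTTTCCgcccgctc
Such a tract was found in 32 of 39 large-subunit genes with a promoter (82.1%), 21 of 25 small-subunit genes (84.0%), 19.4% of members and 16.0% of all genes with one. Ribosomal protein genes with the tract had a median relative change of 0.33 (53 genes) and those without it 0.35 (11 genes). Among other members with a mean of at least 5 the medians were -0.07 with it (1055 genes) and -0.08 without it (4209 genes), so within each class the medians with and without the tract were close.

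Genes of the secretory pathway lay below the median member. Of 50 members of the list of endoplasmic reticulum chaperones and degradation factors 39 were below it, the median was -0.23, and 4 were marked below (8%) and 0 above. SDF2L1, a partner of the chaperone BiP, stood at 432 and 404 with vector and at 237 and 205 with STING. Both STING libraries were far under both vector libraries, with a relative change of -0.63 (SE 0.20, limma adjusted p = 0.384). CRELD2, a stress-induced chaperone, stood at 44.7 and 73.8 with vector and at 27.9 and 26.6 with STING (relative change -0.76, SE 0.57). PDIA6 and TXNDC5, disulfide isomerases, were the other 2, with relative changes of -0.70 (SE 0.64) and -0.61 (SE 0.40). HSPA5, which encodes BiP, stood at 19.2 and 25.4 with vector and at 13.5 and 10.8 with STING.

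Cholesterol synthesis had the lowest median of the lists, -0.28, with 30 of 34 members below the median member and 2 marked below (5.88%). SCD, a stearoyl desaturase under the same sterol-regulated factors and kept in this list, stood at 41.9 and 60.3 with vector and at 23.6 and 28.3 with STING (relative change -0.64, SE 0.38). Vector library 2 was the higher of its pair, and both STING libraries lay under both vector libraries.

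Small chromatin proteins had a median of -0.24, with 25 of 29 below the median member and 2 marked below (6.90%). PTMA, the acidic nuclear protein prothymosin alpha, stood at 4389 and 4443 with vector and at 2403 and 2249 with STING. The pairs were tight and well apart, with a relative change of -0.63 (SE 0.17, limma adjusted p = 0.384), and its family of processed copies makes its reads uncertain. NCL, nucleolin, stood at 73.5 and 105 with vector and at 40.7 and 49.6 with STING (relative change -0.66, SE 0.39).

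Proteasome subunits (43 members, median -0.18, 34 below the median member), DNA replication genes (51, -0.17, 39 below) and heat shock proteins (41, -0.15, 31 below) also had medians below the median member, but the heat shock median was 0.03 without vector library 2 and -0.32 without vector library 1. Of these, CHAF1B, a subunit of the chromatin assembly factor of replication, was the 1 marked, at 7.17 and 11.3 with vector and 3.74 and 5.25 with STING (relative change -0.59). Beside these counts, 2456 of all 6320 members with a mean of at least 5 lay above the median member. Glycolysis (-0.07), mitochondrial ribosomal proteins (-0.06), mitosis (-0.06) and the respiratory chain (-0.02) lay close to the median of -0.07 that all members with a mean of at least 5 had, with 0 members marked. The respiratory chain median was 0.12 without vector library 1 and -0.19 without vector library 2, and that of mitochondrial ribosomal proteins 0.04 and -0.18. Genes of p53 and apoptosis (40 members, median 0.09, 27 above) had PMAIP1, the pro-apoptotic protein NOXA, as their 1 marked member, at 36.2 and 48.5 with vector and 53.6 and 59.9 with STING (relative change 0.72, SE 0.28). Secreted senescence and growth factors had 21 members, a median of 0.10 and 0 marked. The median of this list was -0.05 without vector library 2 and 0.28 without STING library 1, and that of the p53 list -0.03 without STING library 1, so 1 library turned the sign of each.

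**Figure D3:**
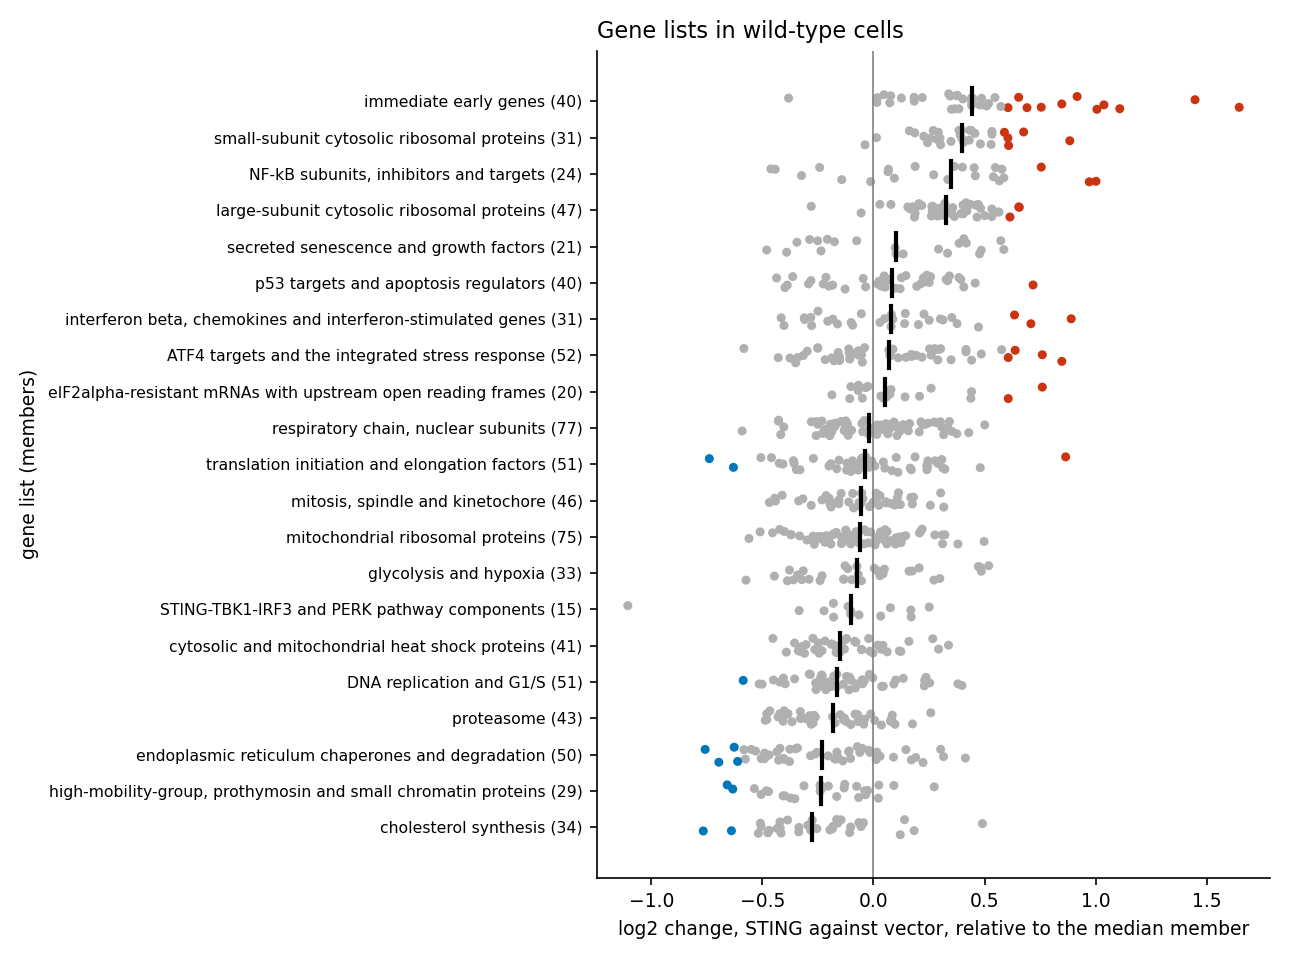
Change of each list member (points) as log2 STING against vector relative to the median member (horizontal axis), with the list median as a black bar and TMEM173 left out; red and blue points are members marked above and below the median. Immediate early genes (median 0.44), ribosomal proteins (0.33 and 0.40) and NF-kB genes (0.35) stand at the top and cholesterol synthesis (-0.28) at the bottom.

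Outside these lists, the largest differences upward among members with a mean of at least 5 were of mixed kinds. MAN1A2, a mannosidase of the Golgi, stood at 3.16 and 4.74 with vector and at 7.64 and 8.93 with STING, a relative change of 1.22 (SE 0.26). CD70, a ligand of the TNF family, stood at 28.3 and 15.1 with vector and at 40.3 and 33.2 with STING (relative change 1.08, SE 0.29). Both were separate between the groups as deposited. POU5F1, a transcription factor of pluripotent cells with several near-identical copies, stood at 5.70 and 2.86 with vector and at 5.72 and 12.1 with STING, so STING library 1 equalled the higher vector library almost exactly. TMEM212, CLPSL2, C13orf15 and PMF1-BGLAP had relative changes of 1.02, 1.02, 1.01 and 0.98, and PMF1-BGLAP is a readthrough entry that overlaps its parent genes.

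Histone genes appeared at both ends. HIST1H2AK, HIST1H4A and HIST1H4D were among the 15 highest, with relative changes of 1.44, 1.35 and 0.95, and HIST4H4 and HIST1H2AI among the 15 lowest, with -1.07 and -0.91. HIST1H2AK (SE 0.60) stood at 1.00 and 5.70 with vector and at 6.49 and 7.74 with STING, so vector library 1 alone was far below the rest. HIST1H4A stood at 2.95 and 4.34 with vector and at 8.23 and 8.82 with STING, whereas HIST4H4, which encodes the same protein, stood at 15.5 and 8.18 with vector and at 4.00 and 3.57 with STING. Replication-dependent histone mRNAs lack a poly(A) tail, the libraries were primed on poly(A), and the copies are nearly identical, so the values of single histone genes are uncertain. A like pair was AP3S2, an adaptor subunit, at 7.64 and 3.00 with vector and 10.1 and 7.91 with STING, and the overlapping readthrough entry C15orf38-AP3S2, at 7.46 and 13.9 with vector and at 1.00 and 5.19 with STING. Their relative changes were opposite, 1.05 and -1.38, and reads of the shared exons cannot be told apart.

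Downward, several of the 15 lowest genes had tight replicate pairs. STOML1, a stomatin-like membrane protein, stood at 10.3 and 11.7 with vector and at 2.96 and 3.62 with STING, a relative change of -1.19 (SE 0.25, limma adjusted p = 0.384). C7orf50 stood at 209 and 179 with vector and at 90.7 and 85.3 with STING (relative change -0.83, SE 0.18). JMJD4, a hydroxylase that modifies a translation termination factor, stood at 42.8 and 37.8 with vector and at 18.4 and 17.8 with STING (relative change -0.82, SE 0.20). In all 3 the groups were well apart in the deposited values. C6orf203, a mitochondrial protein, stood at 12.6 and 16.8 with vector and at 5.87 and 5.24 with STING (relative change -0.96, SE 0.23).

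The remaining genes of the 15 lowest had wider pairs. SFT2D2, a vesicle transport protein, stood at 28.1 and 43.7 with vector and at 9.35 and 15.6 with STING (relative change -1.17, SE 0.58). ACY1, an aminoacylase, stood at 22.4 and 19.1 with vector and at 13.1 and 4.41 with STING, where STING library 2 was far below its partner (relative change -1.02, SE 0.40). OSTN, MED20, CHMP4A, MARC1, LIPT2 and QDPR had relative changes of -1.20, -0.96, -0.86, -0.84, -0.84 and -0.81. MED20 is a subunit of the Mediator complex, CHMP4A of the ESCRT machinery, and QDPR regenerates tetrahydrobiopterin.

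The design also holds the same contrast in cells labelled as PERK knockouts. EIF2AK3 stood at the lowest value in the wild-type libraries, so its level cannot check that label. The STING dose was not equal: TMEM173 stood at 41812 and 40660 in the wild-type STING libraries and at 10512 and 7338 in the knockout STING libraries, so genotype and STING level cannot be told apart. In limma 0 of 12254 genes (0%) passed for the difference of the 2 STING effects, the smallest adjusted p was 0.966, and 474 genes had an unadjusted p under 0.05. DDIT3 stood at 51.9 and 60.7 with vector and at 43.8 and 37.9 with STING in knockout cells, the opposite order to wild-type cells. Its difference of effects was a log2 value of 0.92 (SE 0.24, limma adjusted p = 0.966). Differences of effects are between changes before the median was subtracted, whose medians were -0.29 in wild-type and -0.12 in knockout cells. Relative to these medians, DDIT3 changed by 0.76 in wild-type and -0.33 in knockout cells. For STOML1 the difference was -1.62 (SE 0.35, limma adjusted p = 0.966). MAFF had a difference of 0.97 (SE 0.27), and NFKBIA one of 0.54 (SE 0.22), with adjusted p of 0.966 for both. These genes were shown for their wild-type change, and the difference was smaller or of opposite sign for others: relative changes in knockout and wild-type cells were 1.08 and 0.76 for IER3, 0.80 and 0.85 for ATF3 and 0.61 and 0.89 for ISG15, and their differences did not pass.

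For PTMA knockout cells gave 4339 and 3751 with vector and 1696 and 1589 with STING, the same order as wild-type cells. Of the 105 members marked above the median with a mean of at least 5, 68 (64.8%) lay above the median in knockout cells too, and of the 129 marked below, 90 (69.8%) lay below. The medians of their relative changes were 0.71 and -0.64 in wild-type cells, which chose them, and 0.14 and -0.14 in knockout cells. The shares of all members with a mean of at least 5 above and below the knockout median were not computed, and they need not be equal.

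The first experiment gives the same plasmid amount and time in other libraries and shares none with the wild-type comparison. TMEM173 stood there at 14.9 and 13.8 with vector and at 65157 and 69253 with STING. Its log2 change was 12.10 there, beside 10.42 in wild-type cells. Levels of the first experiment are not on one scale with those above, so equal STING levels cannot be assumed. Of its 9464 tested genes 238 passed limma higher (2.51%) and 879 lower (9.29%). That split depends on scaling: it was 346 higher and 431 lower after quantile normalization, and 793 higher and 268 lower after rescaling to the same total without TMEM173. Without its STING library 1 or 2, 42 and 38 genes passed in all, without its vector library 2, 686, and without intensity trend and robust estimation 17. Of the 105 members marked above the median, 102 had a value there, 66 of them (64.7%) lay above its median and 17 passed higher. Of the 129 marked below, 101 (78.3%) lay below its median and 39 passed lower. The shares of all members with a mean of at least 5 on either side of its median were not computed.

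Named genes differed in how far their size carried over. MAFF stood at 1.70 and 0.625 with vector and at 6.29 and 5.28 with STING in the first experiment, a relative change of 1.74 beside 1.65 in the wild-type libraries. NFKBIA stood at 63.4 and 53.9 with vector and at 125 and 131 with STING (1.17 beside 1.00). These were close, while ISG15 stood at 78.6 and 84.0 with vector and at 551 and 501 with STING, a relative change of 2.73 beside 0.89. ATF3 (2.28 beside 0.85) and PMAIP1 (2.08 beside 0.72) were also larger in the first experiment. C7orf50, JMJD4 and SDF2L1 had relative changes of -1.29, -1.20 and -1.43 there, beside -0.83, -0.82 and -0.63. PTMA, at 698 and 682 with vector and 672 and 707 with STING, overlapped between the groups there. The differences between the experiments were not tested, since the tables were made separately. The part of the larger TMEM173 change of the first experiment in these differences was not tested either.

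As lists, immediate early genes had a median of 0.80 in the first experiment, with 11 of 34 passing limma higher and 0 lower. The ATF4 list had a median of 0.56 there (16 of 49 higher, 0 lower) beside 0.07 in the wild-type libraries, and cholesterol synthesis -0.26 (0 of 32 higher, 5 lower) beside -0.28. Respiratory chain subunits had -0.39 there (2 of 77 higher, 30 lower) beside -0.02. Heat shock proteins lay on the opposite side, at 0.48 (11 of 40 higher, 2 lower) beside -0.15. So did DNA replication (0.23 beside -0.17), small chromatin proteins (0.11 beside -0.24) and interferon genes (-0.10 beside 0.08, 4 of 26 higher, 5 lower). NF-kB genes (0.16 beside 0.35) and endoplasmic reticulum genes (-0.20 beside -0.23, 0 of 48 higher, 14 lower) kept their side. Ribosomal proteins had 0.20 beside 0.33 (large subunit) and 0.07 beside 0.40 (small). These counts stand beside 2.51% higher and 9.29% lower over all genes tested there, a split that moves with scaling as given above. Across the 6253 members other than TMEM173 with a mean of at least 5 and a value in both tables, relative changes correlated with Pearson r = 0.25 and Spearman rho = 0.21 (r = 0.35 with TMEM173), given as a description, since genes of 1 library share its depth and preparation.

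**Figure D4:**
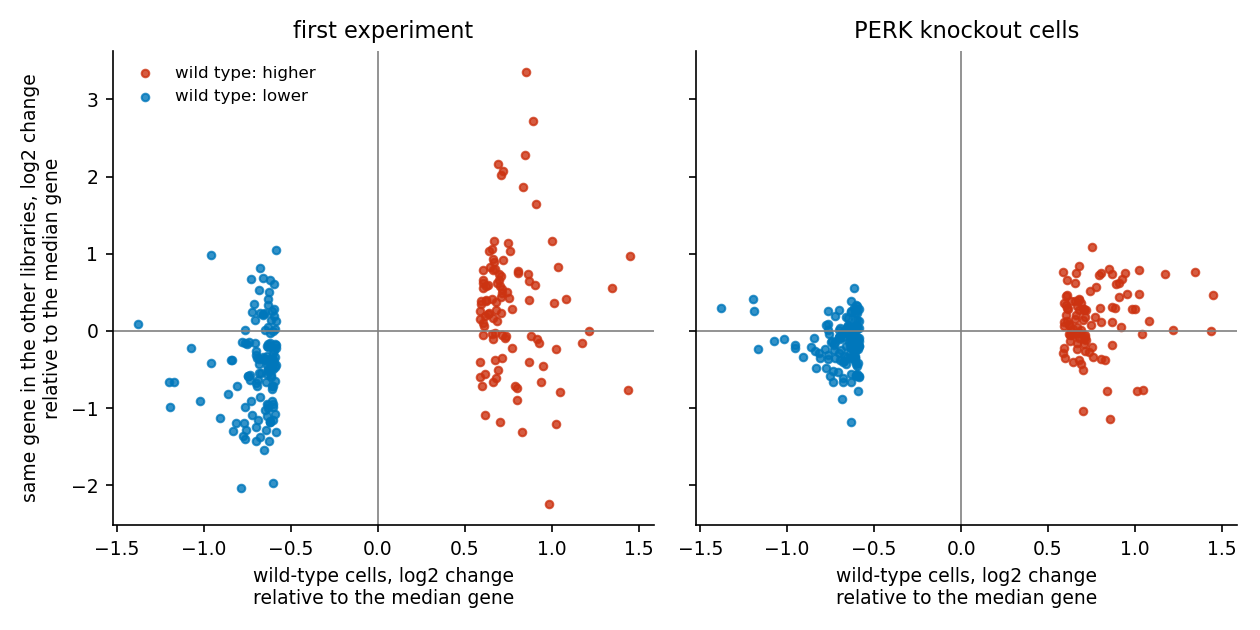
Relative log2 change of the members marked in wild-type cells with a mean of at least 5 and a value in both tables (horizontal axis; red above and blue below the median, TMEM173 left out) against the same gene's relative change in the first experiment (left) and in PERK knockout cells (right). Of the red points on the left 66 of 102 (TMEM173 counted) lie above 0 and of the blue 101 of 129 below 0, and the points on the right lie closer to 0.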

How the data were processed

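Poly(A) RNA from the polysome fraction of HEK293 cells was turned into Smart-seq2 cDNA libraries and read from both ends, per the labels' protocols. The FPKM values are the authors', and the submitters' processing notes name TopHat2 2.1.1, Cufflinks 2.2.1 and the build hg19. In the deposited table with the wild-type libraries no unit is written, and its values were taken as FPKM in which anything under 1 had been set to 1. Its annotation and any filter: not given in the sources used here. Groups and replicate numbers came from the sample titles.

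Genes that averaged 1 or more across the 8 libraries of that table and were not constant were fitted with limma 3.58.1 (R 4.3.3) on log2(FPKM + 1), a mean per group, with intensity trend and robust estimation, two-sided, on values as deposited. Errors are limma standard errors. Relative changes subtract the median over members after the fit, so p-values are for the change before that step. For the test of overlap, libraries were divided by median-of-ratios factors over genes above 1 in all 4, and a value at 1 counted as below any other and as tied with another at 1.

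Named genes are TMEM173, the 15 highest and 15 lowest members with a mean of at least 5 and no overlap, without small RNA entries, up to 4 members of each list by change and 2 by level, of which the text gives a selection (some are not reported here), and the pathway components. The members and lists were chosen with earlier results of these data known. The lists of noncoding RNAs and mitochondrially encoded mRNAs had 0 members. Promoters are RefSeq sequences matched by symbol (9472 of 11463 members, 82.6%), and lengths are from GENCODE release 29. The fitting script was tested on simulated data. Alternatives changed the pseudocount, filter, scaling, moderation, replicate block and libraries.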

Additional observations from a re-analysis of the deposited data

Results flagged for a closer look

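No group holds enough libraries for a test of single outlying values, and no difference between wild-type and knockout cells passed limma. In 10 named genes the wild-type STING libraries lay on one side of the vector libraries and both first-experiment STING libraries on the opposite side of their own. The difference between the experiments was not tested. Above the median member in wild-type cells and lower in the first experiment were HIST1H2AK (relative log2 change 1.44, first experiment -0.76), POU5F1 (1.17 and -0.16), AP3S2 (1.05 and -0.79), TMEM212 (1.02 and -0.23), CLPSL2 (1.02 and -1.21), PMF1-BGLAP (0.98 and -2.24) and HIST1H4D (0.95 and -0.45). Below the median member in wild-type cells and higher in the first experiment were C6orf203 (-0.96 and 0.98), NCL (-0.66 and 0.69) and EIF2B3 (-0.63 and 0.34). Of these 10, CLPSL2 passed in the first experiment (limma adjusted p = 0.0121).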

How the results depend on the processing

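TMEM173 passed in each setting run, with log2 changes from 10.10 to 10.80. The number of genes called in wild-type cells was 1 in each other setting and ran from 1 to 2 when a library was left out. The number for the difference between wild-type and knockout cells was 0 throughout. With the replicate number as a block, 1 gene was called in wild-type cells and 2973 had an unadjusted p under 0.05. In the labels same-numbered libraries share only a number. Their deviations from the group means correlated positively, between 0.042 and 0.53 over pairs of groups. Whether they share a batch was not tested, and the main fit had no replicate term. The block gave 1587 calls in the first experiment, against 1117. There, 580 genes passed with no filter on low values, 17 without intensity trend and robust estimation, and 38 to 818 when a library was left out. The cause was not tested. Members marked above the median numbered 239, 183 on deposited values and 105 with a mean of at least 5. Giving vector library 2 the factor of vector library 1, an alternative added after seeing the data, gave 236 above and 168 below. Among the 65 genes besides TMEM173 whose relative change was recomputed in each setting, RPL21 alone changed direction: it had a relative change of 0.33 without vector library 1 and of -0.88 without vector library 2, against -0.28. The absence of counts, the lowest value of 1 and 2 libraries a group limit what differences could be detected.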
